A study of Homo sapiens with 5 samples.

Results

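The RUNX transcription factors and their common partner CBFB are encoded at 4 loci, and the positions of SMAD2 on the chromatin of those loci are described here. The members are RUNX1, RUNX2, RUNX3 and CBFB, and a SMAD2 binding summit was counted for a locus if it lay within 30 kb of the span of the gene on hg19. The spans run from 36160 to 36422 kb on chromosome 21 (RUNX1), from 45296 to 45519 kb on chromosome 6 (RUNX2), from 25226 to 25292 kb on chromosome 1 (RUNX3) and from 67063 to 67135 kb on chromosome 16 (CBFB). The rule took 135 of the 233945 summits listed in 4 libraries. Chained wherever neighbours lay at most 200 bp apart, they formed 70 of 115321 regions. The cells were T47D, an estrogen receptor-positive human breast cancer line of luminal type, and DNA bound by SMAD2 was sequenced after chromatin immunoprecipitation (ChIP-seq). In 2 libraries the cells had received palbociclib, an inhibitor of the cell cycle kinases CDK4 and CDK6, at 1 µM for 24 h and activin A at 50 ng/ml for 1.5 h. In 2 further libraries they had received activin A alone, at the same dose and time. Activin A is a ligand of the TGF-β family that activates SMAD2. All 4 libraries thus come from activin-treated cells of 1 line, and no list of cells without activin was analysed here.

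RUNX proteins bind DNA through the Runt domain, whose core motif is TGTGGT. CBFB does not contact DNA itself and strengthens the binding of each RUNX protein. RUNX proteins are known to cooperate with activated SMADs on target genes of the TGF-β family, and RUNX1 and CBFB are among the genes mutated in luminal breast cancer. Each RUNX gene is transcribed from a distal promoter and from an inner promoter far downstream of it, which give proteins with different amino termini.

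The densest SMAD2 summits at RUNX1 and RUNX2 lay deep inside these genes and not at their 5′ ends, so promoter sequences are given first. RefSeq's promoter table, on GRCh38.p14, held 2 entries each for RUNX2 and RUNX3 and 1 for RUNX1, which starts inside the gene. CBFB is named only. The 250 bases before the start are printed 5′ to 3′ for the RUNX1 entry (chr21:34888700-34888949, minus strand), the inner RUNX2 entry (chr6:45422025-45422274, plus strand) and the distal RUNX2 entry (chr6:45328080-45328329, plus strand). In the RUNX1 and inner RUNX2 sequences, capitals mark the GC-rich SMAD motifs GGCGC and GGCCG on either strand. In the distal RUNX2 sequence they mark the RUNX motif TGTGGT, read here as ACCACA on the other strand.
RUNX1 single entry: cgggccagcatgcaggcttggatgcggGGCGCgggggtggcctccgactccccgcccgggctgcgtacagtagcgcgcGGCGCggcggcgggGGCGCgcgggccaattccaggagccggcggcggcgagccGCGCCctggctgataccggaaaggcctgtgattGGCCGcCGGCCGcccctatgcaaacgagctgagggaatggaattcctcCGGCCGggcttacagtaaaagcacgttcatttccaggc
RUNX2 inner: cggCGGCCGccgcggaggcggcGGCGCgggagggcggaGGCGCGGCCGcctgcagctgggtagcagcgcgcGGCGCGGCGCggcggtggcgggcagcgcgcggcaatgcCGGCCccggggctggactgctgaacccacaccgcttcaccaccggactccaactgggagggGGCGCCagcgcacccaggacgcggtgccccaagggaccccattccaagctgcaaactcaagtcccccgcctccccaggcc
RUNX2 distal: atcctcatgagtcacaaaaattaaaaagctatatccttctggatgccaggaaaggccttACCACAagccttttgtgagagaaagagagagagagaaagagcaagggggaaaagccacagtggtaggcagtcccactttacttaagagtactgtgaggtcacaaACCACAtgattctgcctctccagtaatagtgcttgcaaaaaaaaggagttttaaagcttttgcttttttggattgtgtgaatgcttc
The GC content of the stretches was 71.2% for RUNX1, 78.0% for the inner RUNX2 entry and 41.6% for the distal one, beside a median of 58.0% over all 35116 promoters.

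The motif GGCGC occurred 4 times in the RUNX1 sequence and 6 times in the inner RUNX2 sequence, and GGCCG 5 times in each. Neither occurred in the distal RUNX2 sequence. The inner RUNX3 entry held 2 and 4 of them, and the distal RUNX3 entry 0 and 6. Of all promoters, 44.5% held GGCGC and 44.7% held GGCCG. The RUNX motif TGTGGT was in the distal sequences of RUNX2 and RUNX3, with 2 copies in each, while the RUNX1 entry and both inner sequences held 0, where 11.0% of all promoters held at least 1. The distal entries of RUNX2 and RUNX3 share a run of 18 bases with a pair of RUNX motifs in capitals, from base 15 to 32 after the start in RUNX2 and from base -133 to -116 in RUNX3.
Shared run: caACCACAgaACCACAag
The SMAD motif CAGAC (in 38.0% of all promoters) and its palindrome GTCTAGAC (0.182%) were in none of the 5 sequences. The AP-1 motif TGANTCA (6.57%) occurred once, in the distal RUNX2 sequence. Motifs were searched on both strands and may overlap, and a match is not a site of binding.

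RUNX1 had the most SMAD2 summits of the 4 loci, and in the full lists it alone had counts that did not overlap between treatments. Its window held 21 and 25 summits in the palbociclib libraries (replicates 1 and 2) and 16 and 10 in the activin libraries, or 23 ± 2.83 and 13.0 ± 4.24 (SD, n = 2 each). Both palbociclib counts lay above both activin counts, a 1.77-fold difference (log2 ratio 0.82). The exact two-sided permutation test gave p = 0.333, which is the smallest that 2 against 2 libraries allow, so no comparison here can pass 0.05. The palbociclib lists are longer throughout, with 62960 and 65207 summits against 51535 and 54243. Of all genome tiles of the same width (322 kb), 27.4% were separated in this direction and 3.14% in the other, and the median log2 ratio was 0.26. With every list trimmed to the length of the shortest, RUNX1 had 15 and 16 summits with palbociclib and 16 and 10 with activin alone, and the separation was gone. In that setting 11.0% of the tiles were separated upwards and 9.66% downwards. At a score of at least 5 RUNX1 had 15 and 16 summits with palbociclib and 12 and 8 with activin alone, which did not overlap. The share of tiles separated at that score was not computed.

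RUNX2 came next in number, with 15 and 10 summits with palbociclib and 12 and 6 with activin alone. The groups overlapped (12.5 ± 3.54 and 9.0 ± 4.24, SD, n = 2 each, exact permutation p = 0.667), where 25.8% of tiles of 283 kb were separated upwards and 3.36% downwards. At CBFB the palbociclib libraries held 4 and 3 summits and the activin libraries 5 and 4, the lone locus of the 4 with a lower mean after palbociclib (exact permutation p = 0.667). Of tiles of 132 kb, 19.4% were separated upwards and 3.29% downwards. With lists of equal length, and likewise at a score of at least 5, the CBFB groups did not overlap, with 2 and 2 summits with palbociclib and 5 and 4 with activin alone (log2 ratio -1.17, exact permutation p = 0.333). At equal length 7.45% of the tiles were separated downwards and 8.76% upwards. The share of tiles separated at a score of at least 5 was not computed. RUNX3 was almost empty, with 2 and 1 summits with palbociclib and 0 and 1 with activin alone (exact permutation p = 0.667). Tiles of 126 kb were separated upwards in 19.0% and downwards in 3.19%. Per 100 kb of window RUNX1 held 6.52 and 7.76 summits with palbociclib and 4.97 and 3.11 with activin alone. The values were 5.3 and 3.53, then 4.24 and 2.12, at RUNX2. At CBFB they were 3.03 and 2.27, then 3.79 and 3.03, and at RUNX3 1.59 and 0.794, then 0.0 and 0.794. The ranges of RUNX1, RUNX2 and CBFB overlapped, and in activin replicate 2 CBFB (3.03) stood above RUNX2 (2.12). RUNX3 lay below the other loci in each library. Among genome tiles with at least 1 summit, 89.7% held fewer than RUNX1, 81.5% fewer than RUNX2, 71.0% fewer than CBFB and 27.8% fewer than RUNX3, by the mean over the libraries.

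**Figure D1:**
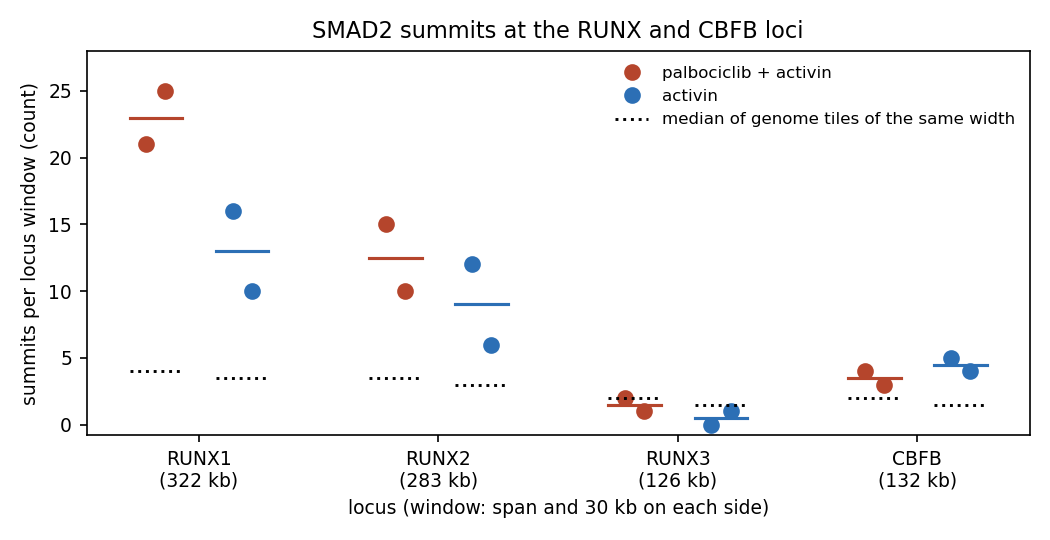
Summits counted in each locus window (y axis, count) by locus (x axis), with 1 point per library, a bar at the mean of 2 libraries, palbociclib plus activin in red left of activin alone in blue, and dotted lines at the median of genome tiles of the same width. The red points at RUNX1, 21 and 25, lie above the blue ones, 16 and 10, while at the other loci the groups overlap or meet.

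At RUNX1, SMAD2 summits filled the part of the gene farthest from its 5′ end. RUNX1 is read from right to left on the chromosome, and the 155 kb next to the 5′ end of its span held no summit in any library. Of the 72 summits of the window, 62 lay in the span, 9 in the 30 kb beyond its 3′ end and 1 upstream. The spans are given to the nearest kb, so distances from them carry that error. Summits of all libraries at most 3 kb apart formed a domain of 16.6 kb on hg19 at chr21:36249939-36266581, lying 155 to 172 kb from the 5′ end of the span. It held 10 and 12 summits with palbociclib and 12 and 8 with activin alone. Of 46425 such domains in the genome, 0.741% held as many summits, and 1.18% of 41200 did where summits up to 5 kb apart were joined. The RUNX1 promoter printed above starts inside the gene, and whether it lies in this domain was not determined, since the builds differ.

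The separation between treatments lay outside that domain. There the RUNX1 window held 11 and 13 summits in the palbociclib libraries and 4 and 2 in the activin libraries, a 4.0-fold difference of means (12 ± 1.41 and 3.0 ± 1.41, SD, n = 2 each, exact permutation p = 0.333). Inside it the means were 11.0 ± 1.41 and 10.0 ± 2.83 (1.1-fold). The domain was defined after the summits were seen. Of genome tiles of the same width without their own largest domain, 25.0% were separated upwards and 3.29% downwards. Most of the outer palbociclib summits were weak and not found again: 6 of 11 and 8 of 13 lay in regions of 1 library. Over the genome, 16933 and 18254 regions were of that library alone, where the lists held 62960 and 65207 summits. The median scores of the outer palbociclib summits were 5.08 and 3.36, where the lists' own medians were 9.41 and 8.39. The score is the authors' value, read as the −log10 q of the summit against the input, and it is compared within a list only. Scores under 5 were given to 4 and 8 of the outer palbociclib summits and to 0 and 0 of the activin ones. Inside the domain they were given to 2 and 1 palbociclib summits and to 4 and 2 activin ones. A score of 5 need not mark the same strength in each list. At a score of at least 5, and likewise with lists of equal length, 7 and 5 remained with palbociclib and 4 and 2 with activin. The share of genome tiles separated in these settings without their largest domain was not computed.

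**Figure D2:**
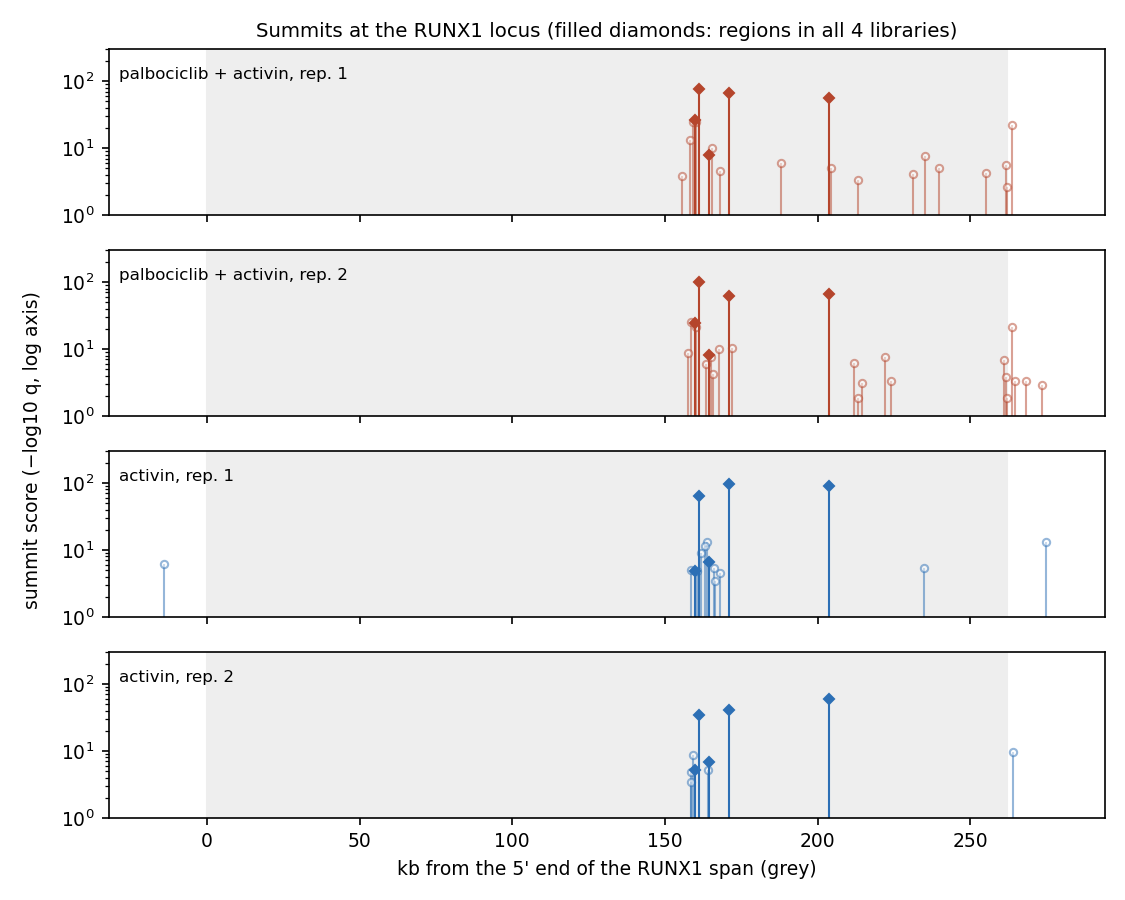
Score of each summit (y axis, −log10 q, log axis) against its distance in kb from the 5′ end of the RUNX1 span (x axis; the span is grey), 1 panel per library, with filled diamonds for regions present in all 4 libraries. The 155 kb next to the 5′ end are empty in every panel, and the weak summits beyond 172 kb are more numerous in the 2 upper panels (palbociclib).

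Of the 44 regions at RUNX1, 5 were present in every library. The strongest of them lay at 161.0, 171.0 and 203.8 kb from the 5′ end. The region at chr21:36260953-36261010 (161.0 kb) scored 75.45 and 100.23 in the palbociclib lists and 64.64 and 34.66 in the activin lists. The region at chr21:36250969-36251000 (171.0 kb) scored 67.76 and 62.13, then 96.32 and 41.17. The region at chr21:36218192-36218227 (203.8 kb) scored 57.06 and 66.22, then 90.97 and 59.9. Within each list the order can be read without comparing scores between lists. The region at 161.0 kb was the strongest of the 5 in both palbociclib lists and the third in both activin lists, behind those at 171.0 and 203.8 kb.

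The weaker shared regions also exchanged places. The region at chr21:36262216-36262295 (159.7 kb) scored 26.21 and 24.52 with palbociclib and 4.89 and 5.24 with activin alone. The region at chr21:36257456-36257564 (164.5 kb) scored 8.0 and 8.17, then 6.5 and 6.8. The 159.7-kb region was thus the fourth in both palbociclib lists and the fifth, behind the 164.5-kb region, in both activin lists. These activin scores are low. At a score of at least 5 the 159.7-kb region was present in 3 libraries only, and neither region was among the 10000 highest summits of any list. In all, 3 of 10 pairs of RUNX1 regions stood in the same order in both palbociclib lists and in the opposite order in both activin lists. Of 32011 pairs of shared regions at most 50 kb apart in the genome, 3.73% did so. The 10 pairs are made from 5 regions and are not independent, and this comparison was chosen after the values were seen. RUNX2 had 0 of 2 such pairs.

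**Figure D3:**
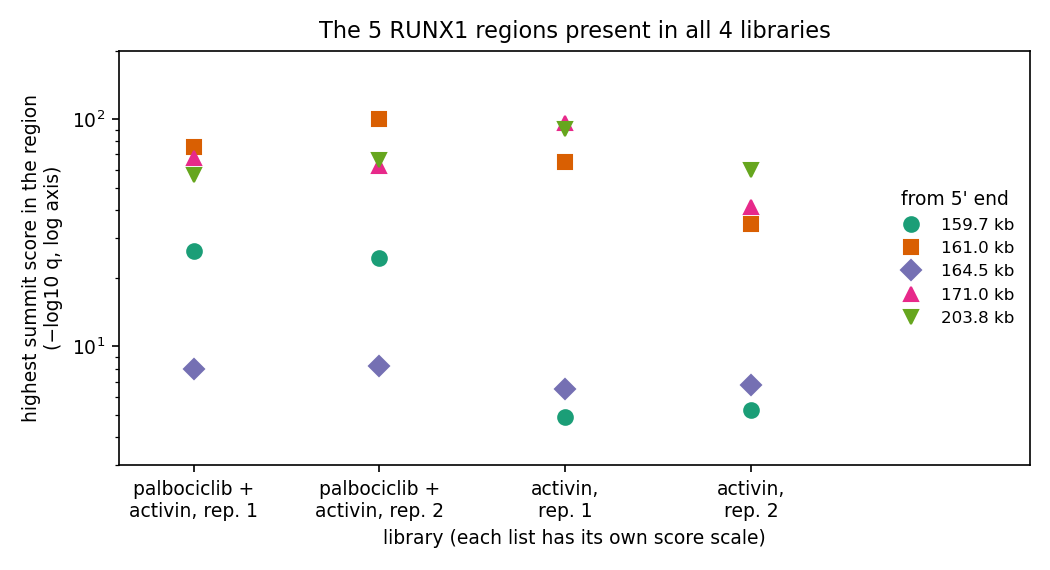
Highest summit score (y axis, −log10 q, log axis) of the 5 RUNX1 regions present in all 4 libraries, by library (x axis), with 1 symbol per region labelled by its distance from the 5′ end. The squares (161.0 kb) are on top in both palbociclib lists and the third in both activin lists, and the circles (159.7 kb) lie above the diamonds (164.5 kb) with palbociclib and below them with activin alone.

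Palbociclib-only regions, with a summit in each palbociclib library and none with activin alone, were 4 of the 44 RUNX1 regions (9.09%), beside 5.29% of all regions in the genome. Regions of the opposite kind were 0 of 44, beside 2.22%. The best ranked was chr21:36256687-36256830, with scores of 10.08 and 7.74 and an activin summit 626 bp away. The regions at chr21:36160215-36160404 and chr21:36159849-36159916, at the 3′ end of the gene, scored 5.69 and 3.84, then 2.62 and 1.89. The nearest activin summits were 2078 and 1712 bp from them. The remaining region, chr21:36208691-36208733, scored 3.39 and 1.89 and lay 9471 bp from an activin summit. Of the 4 regions, the best ranked stood near the middle of each list, above 52.9% and 45.6% of all summits there. The others stood lower in both lists.

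At RUNX2, the master regulator of osteoblast differentiation, 2 strong regions flanked a compact domain of weaker ones. RUNX2 is read from left to right. The region at chr6:45345965-45345993, 50.0 kb from the 5′ end, was the strongest of the locus in every list, with scores of 101.54 and 111.35 with palbociclib and 76.98 and 89.53 with activin alone. It stood above 92.1% and 94.1% of the summits of the palbociclib lists and above 92.3% and 94.1% of the activin lists. The region at chr6:45413733-45413799 (117.8 kb) was the second in every list, with 70.17 and 45.95, then 48.41 and 27.93. The order of the shared RUNX2 regions was thus the same in all 4 lists.

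The RUNX2 domain lay between these regions, at chr6:45387268-45390710, over 3.44 kb and 91.3 to 94.7 kb from the 5′ end of the span on hg19. On GRCh38.p14 the inner RUNX2 promoter starts 93945 bp after the distal one. The positions were not carried from one build to the other, so whether the domain covers that start was not determined. The domain held 5 and 5 summits with palbociclib and 3 and 3 with activin alone (exact permutation p = 0.333). Of all domains of the genome, 10.0% were separated upwards and 2.33% downwards. Most of those held fewer summits, and a domain with a single summit cannot be separated. The shares among domains of like size were not computed. At equal list length the RUNX2 domain held 5 and 3, then 3 and 3, and the groups met. As many summits were held by 5.42% of the domains of the genome. Its shared region at chr6:45389290-45389586 scored 26.21 and 15.89, then 7.16 and 5.24, and was the third of the locus in every list. The palbociclib-only region at chr6:45390008-45390011, 1 of 17 RUNX2 regions (5.88%), scored 4.89 and 9.38 and lay 422 bp from an activin summit. At the 5′ end of RUNX2 a region 0.98 to 0.994 kb upstream of the span was listed in palbociclib replicate 1 and activin replicate 1, with scores of 4.87 and 7.54.

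RUNX3, described as a tumour suppressor in several epithelia, held a single recurrent region. It lay at chr1:25253139-25253189, 38.8 to 38.9 kb from the 5′ end, with scores of 7.66 and 5.38 in the palbociclib lists and 3.95 in activin replicate 2. Activin replicate 1 listed no summit in the window. The other RUNX3 summit, 3.47 kb upstream of the span, scored 6.93 in palbociclib replicate 1 alone. No RUNX3 summit reached the median of its list. On GRCh38.p14 the inner RUNX3 promoter starts 34734 bp after the distal one.

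CBFB had a region shared by all libraries at its 5′ end and a stronger one past its 3′ end. The region at chr16:67062739-67062785 lay 0.215 to 0.261 kb before the 5′ end of the span, within the error of the kb at which the span is given, and scored 23.21 and 113.95 with palbociclib and 31.2 and 46.65 with activin alone. The palbociclib replicates differed most, at 72.9% and 94.3% of the way up their lists, and the activin replicates at 78.8% and 86.3% lay between them. The region at chr16:67143649-67143663, 80.7 kb from the 5′ end and so past the 3′ end of CBFB, scored 208.97 and 206.01, then 84.66 and 107.05. It outranked the region at the CBFB start in each list, and was the strongest of the 4 loci in 3 of the 4 lists, the exception being activin replicate 1, where RUNX1 regions scored 96.32 and 90.97. It stood above 97.9% and 98.5% of the palbociclib summits and 93.3% and 95.8% of the activin summits. The next gene on that side in RefSeq is PHAF1, and whether the region lies at its start was not determined for want of an annotation on hg19. Between these regions the body of CBFB held 2 summits, both within 0.859 kb of the 5′ end and 1 in each palbociclib library, and the remaining 71.1 kb of the span held none. CBFB also had the lone activin-only region of the 4 loci, chr16:67047715-67047781, 15.2 to 15.3 kb upstream, with scores of 8.9 and 7.49 and the nearest palbociclib summit 15002 bp away.

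**Figure D4:**
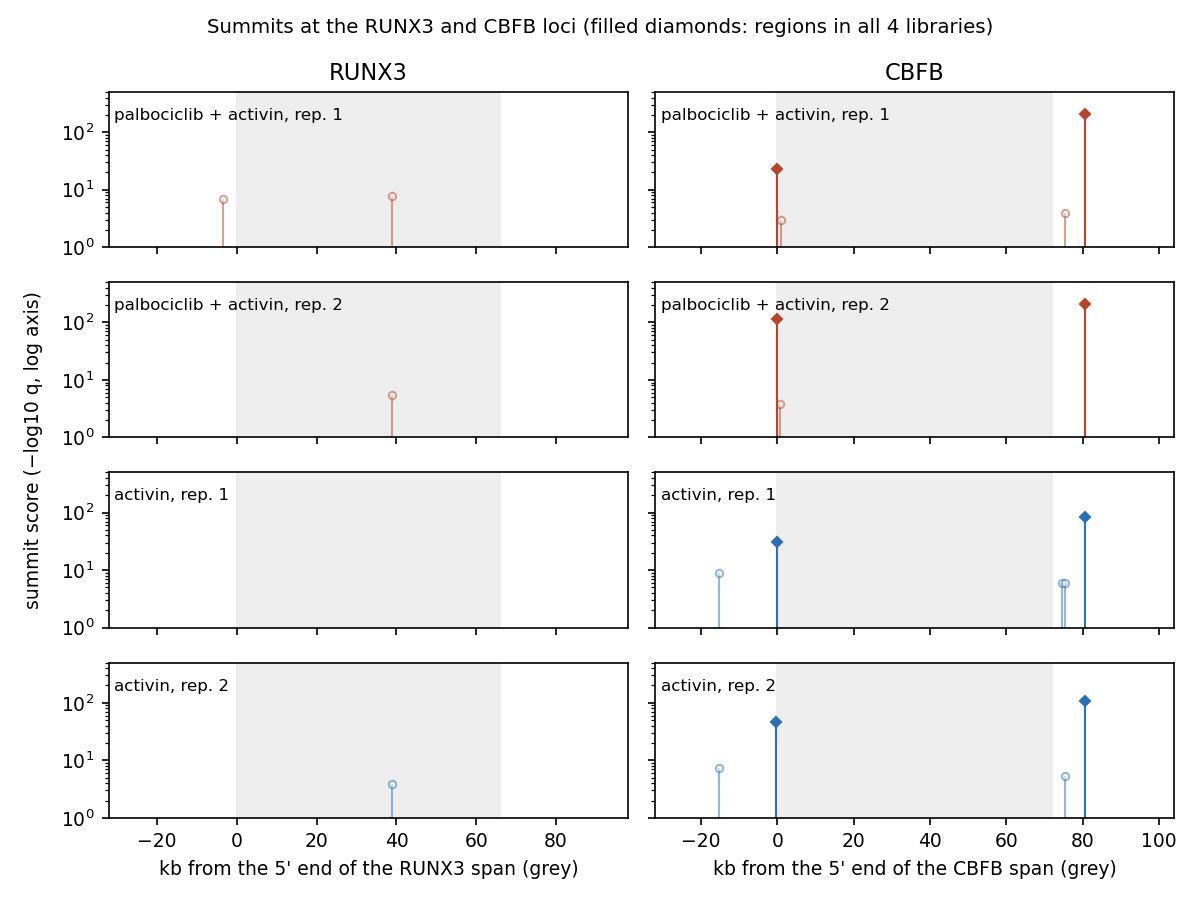
Score of each summit (y axis, −log10 q, log axis) against its distance in kb from the 5′ end of the span (x axis; the span is grey) for RUNX3 (left) and CBFB (right), 1 row per library, with filled diamonds for regions present in all 4 libraries. RUNX3 has no shared region, and CBFB has 2, at its 5′ end and at 80.7 kb, with the one at 80.7 kb higher in every row.

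Over the 4 loci together, 10 of 70 regions (14.3%) were present in every library and 38 (54.3%) in a single one, beside 20.4% and 50.8% of all regions of the genome. The regions of a single library were 27 from the palbociclib lists and 11 from the activin lists, of which activin replicate 2 gave 1. Over the genome they were 35187 and 23361, of which activin replicate 2 gave 12772. Palbociclib-only regions were 5 of 70 (7.14%) and activin-only regions 1 of 70 (1.43%). The 4 loci held 42 and 39 summits with palbociclib and 33 and 21 with activin alone (40.5 ± 2.12 and 27.0 ± 8.49, SD, n = 2 each, exact permutation p = 0.333). Of genome tiles as wide as the 4 windows together (863 kb), 43.2% were separated upwards and 2.85% downwards. At equal list length the 4 loci held 32 and 26 summits with palbociclib and 33 and 21 with activin alone, and the groups overlapped (log2 ratio 0.1). Activin replicate 2 stood low at RUNX1 and RUNX2, and without it the log2 ratio of the 4 loci was 0.3 in place of 0.58. Of its 21 summits, 14 (66.7%, exact 95% interval 43.0 to 85.4) had a summit of palbociclib replicate 1 within 200 bp. The share over its whole list, 58.7%, lay inside that interval. Of palbociclib replicate 1 summits, 14 of 42 (33.3%, 19.6 to 49.5) had a summit of activin replicate 2, beside 50.5% of its list. Every ordered pair of libraries was looked at, and in this one alone the list's share lay outside the interval. Activin replicate 2 had only 21 summits here to be matched. The intervals cover counting error only and treat summits as independent, though many lay close together in the domains.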

How the data were processed

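SMAD2 binding was mapped by ChIP-seq in T47D cells, and 4 of the 5 samples have a processed file: 2 libraries with palbociclib and activin A, and 2 with activin A alone. The remaining sample, 1 input library of untreated cells, was the control for peak calling, per the labels, and is not analysed here. The submitters' processing notes name Bowtie 1.1.0 as well as Picard, MACS2 2.0.9 and the build hg19. Neither the order of steps nor their parameters are stated. Each list deposited by the authors holds the summits of 1 library, so peaks were not called on pooled replicates. The deposited score was read as −log10 q, since its lowest value in any list is 1.31 and a q of 0.05 corresponds to 1.3. A summit is 1 position in a stretch of unknown width, and its absence is not the absence of SMAD2. Read numbers are not in the lists, so the depth is unknown, and the number of summits and their scores vary with it.

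Summits on chromosomes 1 to 22 and X were converted to 1-based positions, chained at 200 bp over all libraries, and assigned to a locus within 30 kb of its span. The genome was cut into tiles as wide as each locus window, and tiles with at least 1 summit gave the background. Groups were compared by exact permutation of the 4 libraries, two-sided. Regions were named by rank: up to 5 per locus in all libraries and up to 3 specific to each treatment. Others were named after their values were seen, and the members and lists were chosen with earlier results of these data known. Same-numbered libraries did not deviate together (r = -0.001 over 23476 shared regions), and it is not stated that replicates were separate cultures, so their spread may be technical. The strand of CBFB is textbook knowledge. Partner genes of RUNX and motifs in the regions were not analysed here, for want of an annotation and a genome on hg19. Promoters were matched by symbol (3 of 4 genes). Alternatives were a minimum score, list length, flank, chaining gap, tile phase, each library left out in turn and a replicate block. The domains, the pairs of regions, and the tile shares at equal list length, without the largest domain and at the summed width were added after seeing the data. The overlap code was tested on simulated lists. Scripts ran in Python 3.11.15 (pandas 2.3.3, numpy 2.4.6, scipy 1.17.1), with matplotlib 3.10.9 for figures.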

Additional observations from a re-analysis of the deposited data

How the results depend on the processing

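The RUNX1 excess after palbociclib reversed under no alternative, but its size depended on list length. Its log2 ratio of 0.82 was 0.25 at equal list lengths and 0.0 among the 10000 highest summits of each list, where each library held 3. Among those 10000, the ratios of RUNX2, CBFB and the 4 loci together were 0.0 too. Without each library in turn, the log2 ratio was 0.52 to 1.2 for RUNX1, 0.06 to 1.06 for RUNX2, 0.58 to 2.0 for RUNX3, -0.58 to -0.17 for CBFB and 0.3 to 0.95 for the 4 loci. For CBFB (-0.36) the log2 ratio was -1.17 at equal list length and at a score of at least 5. It was 0.0 with a flank of 10 kb and reversed to 0.07 with one of 100 kb, the cause of which was not tested. With the replicate block the log2 ratios were 0.86 (RUNX1), 0.53 (RUNX2), -0.37 (CBFB) and 0.62 (4 loci), with an exact sign-flip permutation p = 0.5, the smallest that 2 pairs allow. RUNX3 gave no ratio with the block, at a score of at least 5, in the highest 10000 or without activin replicate 2, nor CBFB with no flank, because a group was at 0.

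Palbociclib-only regions (5) numbered 3 at a score of at least 2, 3 at a score of at least 5, 2 at equal list lengths and 0 in the highest 10000. They numbered 3 and 2 with chaining gaps of 100 and 1000 bp and 8 with a flank of 100 kb. Activin-only regions (1) numbered 2 at equal list lengths, 2 where scores reached 5, 0 in the highest 10000 and with flanks of 0 and 10 kb, and 6 with a flank of 100 kb. Regions in all libraries (10) numbered 5 in the highest 10000 and 22 with a flank of 100 kb. Leaving out each library gave 7 to 20 palbociclib-only, 2 to 11 activin-only and 11 to 14 shared regions, since a group of 1 library needs a summit there only. The replicate block, which compares same-numbered libraries, gave 23 palbociclib-side and 10.0 activin-side regions on average. The RUNX1 domain held 42 summits with a domain gap of 3 or 5 kb. The turned order held in 3 of the RUNX1 pairs within 100 kb and in 2 within 20 kb. The unknown read depth limits every count.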

Other observations

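Beyond the windows described above, further regions present in all 4 libraries lay 30 to 100 kb from the spans, and these were picked after their values were seen. Past the 3′ end of RUNX1 there were 3, and each scored higher in every list than the region at 161.0 kb in the gene. The one at chr21:36109441-36109451, 50.6 kb from the span, scored 273.58 and 258.76 with palbociclib and 222.86 and 164.56 with activin alone. The others lay at 52.8 kb (199.3 and 188.66, then 96.17 and 79.4) and 59.0 kb (145.66 and 108.86, then 74.09 and 57.93). In activin replicate 1 both of these others scored below the region at 171.0 kb in the gene (96.32). In activin replicate 2 the one at 59.0 kb scored below the region at 203.8 kb in the gene (59.9). Around CBFB 8 such regions lay downstream and 1 upstream, and none lay around RUNX2 or RUNX3. With a flank of 100 kb CBFB had 31 and 32 summits with palbociclib and 28 and 32 with activin alone.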
